A study of Homo sapiens with 20 samples.

Results

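Ascites is fluid that collects in the abdominal cavity, and tumour cells floating in it can be grown as cell lines. Of 20 established human biliary tract cancer lines profiled by RNA sequencing, 13 come from tumours outside the gallbladder and were labelled either as ascites or as primary. The rule took the 3 ascites lines (HuCCT1, OZ and Sk-ChA-1) and the 10 lines from primary tumours. HuCCT1 is labelled intrahepatic, Sk-ChA-1 extrahepatic, and OZ with both sites. The primary lines are 4 extrahepatic (EGI-1, SNU-1196, SNU-245, TFK-1), 3 intrahepatic (HuH28, SNU-1079, TKKK) and 3 ampullary (SNU-478, SNU-869, TGBC18TKB), the ampulla being the common outlet of the bile and pancreatic ducts. All were grown untreated in the same serum-containing DMEM, with 1 library per line, so a line is the replicate and each spread below is a spread between lines. The labels tie no ascites line to a primary line of one patient. The repositories differ too: the ascites lines came from RIKEN, HSRRB and Zurich (1 each), and 5 of the 10 primary lines came from KCLB, which supplied no ascites line. For the Zurich line, repository and origin cannot be told apart.

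Cells that leave a duct tumour for the peritoneal cavity are known to lose contact with their basement membrane, to survive detachment that kills normal epithelium, and to grow in a fluid rich in cytokines. Programmes usually studied in such cells are cell adhesion, matrix proteolysis, apoptosis control, and the Notch and WNT pathways that govern bile duct identity. A cell line keeps only the part of these programmes that is stable in culture.

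Library totals of the 13 lines ran from 10.47 to 15.41 M counts (M for mega), and the ascites lines had 11.52, 11.87 and 13.5 M. Levels are given in CPM, counts per M counts after TMM scaling, and log2 differences are the ascites lines minus the primary lines. KRT19, a keratin of bile ducts, stood at 1950 CPM in HuCCT1, 2030 in OZ and 7000 in Sk-ChA-1, against 1.03, 1550 and 3050 (lowest, median and highest) in the primary lines. The epithelial adhesion gene EPCAM was at 528, 812 and 127 CPM, against 0.257, 835 and 2090. Among the primary lines, HuH28 held the lowest level of both genes. KRT19 and EPCAM were thus present in all 3 ascites lines, and neither was above 1.03 CPM in HuH28.

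Of the defining markers of cells that ascites can add, PTPRC and WT1 were near 0 in the ascites lines. The mesothelial markers CALB2 and UPK3B were not. CALB2 was at 5.29, 6.06 and 23.9 CPM in HuCCT1, OZ and Sk-ChA-1. Its lowest, median and highest primary levels were 0.676, 12.9 and 198 CPM. PTPRC, the pan-leukocyte antigen CD45, was at 0.0853, 0 and 0 CPM in HuCCT1, OZ and Sk-ChA-1, and WT1, a mesothelial transcription factor, at the same 3 values. DCN, a fibroblast proteoglycan, was at 0, 0.249 and 3.21 CPM. Of 16 leukocyte markers 5 were tested and none had an unadjusted p under 0.05. Their summed level was 69.3, 44 and 91 CPM, within the 20.4 to 3110 of the primary lines. Of 12 mesothelial markers 8 were tested, again with none under 0.05, and they summed to 1520, 186 and 1160 CPM against 102 to 4230. UPK3B, a mesothelial and urothelial membrane protein, reached 743 CPM in Sk-ChA-1 and 7.59 and 29.6 in the other two, against 0.599, 9.38 and 480. Fibroblast markers summed to 11, 11 and 15.1 CPM against 1.86 to 773.

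The ascites lines were not a separate class by their whole transcriptome. Across the tested genes, log2 CPM of ascites lines correlated with one another at 0.765, 0.791 and 0.811, and with primary lines at 0.638 to 0.848 (median 0.784, 30 pairs). Primary lines correlated with one another at 0.583 to 0.843 (median 0.765, 45 pairs). Genes are not independent replicates, and these values are descriptions. HuCCT1 was most like the primary line EGI-1 (0.848) and OZ most like the ampullary line TGBC18TKB (0.813). Sk-ChA-1 was most like HuCCT1 (0.811).

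No gene of 15661 tested passed a Benjamini-Hochberg adjusted p under 0.05 with edgeR's quasi-likelihood test (percent called 0). At an unadjusted p under 0.05 there were 586 genes, or 3.74%, of which 223 (1.42%) were higher and 363 (2.32%) lower in the ascites lines. limma-voom also called 0 genes. DESeq2 called 114, of which 14 were higher and 100 lower. Its calls of smallest p include log2 differences such as −24.32 for OLFM1, −20.7 for CNTFR and −26 for RSPO3. These are too large to be read as fold sizes at this depth. In counts simulated with the dispersion of these genes, edgeR called 0% of genes given a log2 change of 1, 18% at 2, 54% at 3 and 78% at 5. In that simulation of 3 lines against 10, no gene changed by 1 on the log2 scale passed the adjusted threshold. At an unadjusted p under 0.05 the share was 32%. The median log2 difference over all tested genes was −0.10. In 32 genes (0.204%) all 3 ascites lines lay above all 10 primary lines, and in 32 (0.204%) all lay below. With random labels a gene would lie wholly above in at most 1 of 286 assignments (a share of 0.0035), and likewise below. Neither share was above that, so lack of overlap alone does not mark a gene out. The genes named below are those of smallest p in each direction and members of gene lists, and their lowest adjusted p was 0.821. None rose or fell by the test, and each is given as levels. With bulk RNA, fewer cells with a transcript and less transcript per cell cannot be told apart.

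Of the 10 lower genes of smallest p, 4 are zinc finger genes of chromosome 19 (ZNF790, ZNF737, ZNF345 and ZNF114). Such genes encode DNA binding proteins with arrays of C2H2 zinc fingers, most of them transcriptional repressors, and lie in clusters along the chromosome. The promoters of 3 of them are shown because their transcripts were near or at 0 counts in the ascites lines. A pair of them also start close together on opposite strands and are transcribed away from each other. The windows run from 250 bases before to 50 after the RefSeq start (GRCh38.p14), 5′ to 3′ on the gene's strand, with CG pairs, the sites of DNA methylation, in capitals. ZNF790 lies at chr19:36850743-36851042 on the minus strand and ZNF345 at chr19:36850626-36850925 on the plus strand, so that the windows share 183 bases. ZNF737 lies at chr19:20565732-20566031 on the minus strand.
ZNF790: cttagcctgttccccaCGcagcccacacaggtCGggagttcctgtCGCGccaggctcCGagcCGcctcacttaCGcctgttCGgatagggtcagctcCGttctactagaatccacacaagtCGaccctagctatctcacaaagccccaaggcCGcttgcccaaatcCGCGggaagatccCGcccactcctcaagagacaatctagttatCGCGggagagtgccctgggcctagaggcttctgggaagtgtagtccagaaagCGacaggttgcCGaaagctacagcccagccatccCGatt
ZNF345: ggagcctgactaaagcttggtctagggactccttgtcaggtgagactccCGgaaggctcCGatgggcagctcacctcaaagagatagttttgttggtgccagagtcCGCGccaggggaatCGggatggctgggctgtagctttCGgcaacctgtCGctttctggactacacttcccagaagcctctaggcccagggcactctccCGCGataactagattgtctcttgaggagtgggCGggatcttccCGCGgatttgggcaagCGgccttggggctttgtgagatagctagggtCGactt
ZNF737: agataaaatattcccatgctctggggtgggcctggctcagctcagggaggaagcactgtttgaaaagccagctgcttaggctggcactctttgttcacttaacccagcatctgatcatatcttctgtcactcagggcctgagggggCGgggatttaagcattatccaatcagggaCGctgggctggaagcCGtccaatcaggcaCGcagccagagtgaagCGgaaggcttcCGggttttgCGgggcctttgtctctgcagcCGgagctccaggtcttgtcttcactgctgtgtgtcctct
The windows hold 19, 14 and 8 CG pairs. A window of this length held a median of 14 pairs over 35116 promoters, of which 53.1% had 12 or more. Over 260 promoter entries of the tested zinc finger genes of chromosome 19 the median was 20, and 85.4% had 12 or more. Methylation was not measured here.

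ZNF790 had 0 counts in HuCCT1, OZ and Sk-ChA-1 and 0.0979, 2.16 and 6.42 CPM in the primary lines. The groups did not overlap (exact permutation p = 0.0035, the smallest that 286 assignments can give, two-sided and unadjusted). ZNF790 was named for its small p in the same lines, so the permutation p adds no support. The separation rests on 1 count in SNU-245, the lowest primary line, which is below the floor of 3 counts used next. With each library of 0 counts set to the floor of 3 counts, a mean of 0.243 CPM, the ascites level was at least 11.4-fold lower than the primary mean. edgeR gave p = 0.000591, adjusted p = 0.898. ZNF345 shares its start region, and had 2 counts in HuCCT1 (0.171 CPM) and 0 in OZ and Sk-ChA-1, against 0.142, 4.07 and 17 CPM in the primary lines. Only TFK-1 among the primary lines lay below HuCCT1. The primary mean was 113 times the ascites mean, with an exact 95% Poisson interval of 31.3 to 933 that covers counting error only.

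ZNF737 lies in another cluster of the chromosome. It had 0 counts in all 3 ascites lines and 0.0791, 4.47 and 24.9 CPM in the primary lines, at least 33.5-fold lower than their mean (p = 0.00293, adjusted p = 0.998). Here too the groups did not overlap, but SNU-869 held 0.0791 CPM, and SNU-245, SNU-478 and TFK-1 stood at 0.338 to 0.686. ZNF114 was at 0.0853, 0.581 and 0 CPM against 0.246, 14.8 and 42.5, and SNU-1079 was the 1 primary line within the ascites range.

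Of 238 tested zinc finger genes of chromosome 19, a group defined after these values were seen, 32 (13.4%) were lower at an unadjusted p under 0.05 and 0 higher, beside 2.32% and 1.42% of all genes. The 32 include ZNF790, ZNF737, ZNF345 and ZNF114, which prompted the look at the group. Among genes with at least 1 CPM in 10 lines, 11 of 171 (6.43%) were lower. Of all genes under that filter, 2.7% had an unadjusted p under 0.05 in either direction. None passed the adjusted threshold with edgeR. Their median log2 difference was −0.57, and 50 of the 238 lay above 0. Zinc finger genes of other chromosomes had a median of −0.15 with 9 lower of 298 (3.02%), and other genes of chromosome 19 a median of −0.08 with 14 lower of 838 (1.67%). With repository as a covariate, Zurich being merged with DSMZ, 32 of 238 were again lower (median −0.93). Without the KCLB lines 30 of 226 were lower. Sk-ChA-1 carried much of the count: without it 14 of 245 (5.71%) were lower. limma-voom gave 15 lower and 2 higher.

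Counted per line, 44 of the 238 genes had at most 3 counts in HuCCT1, 45 in OZ and 65 in Sk-ChA-1. The primary lines ran from 1 in HuH28 over a median of 25.5 to 81 in SNU-869. SNU-869 and TFK-1 (58) had more such genes than HuCCT1 and OZ, so the groups overlapped. In 16 genes of the group all 3 ascites lines had 0 counts, beside 100 of all 15661 genes tested. The number was 1 among the 298 zinc finger genes of other chromosomes and 5 among the 838 other genes of chromosome 19. Such genes passed the count filter only through the primary lines, so they could only be lower. Over all tested genes, 1143 to 1339 had at most 3 counts in the ascites lines and 927 to 1657 in the primary lines, so the ascites lines were within the primary range there.

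**Figure D1:**
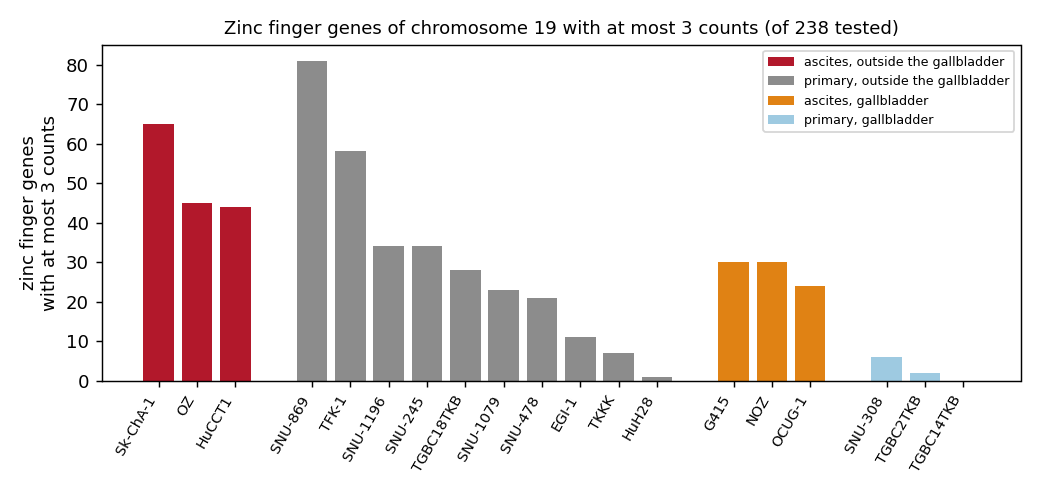
Number of chromosome 19 zinc finger genes with at most 3 counts in each line (y axis, genes of 238 tested), with bars grouped by origin and sorted within each group. HuCCT1, OZ and Sk-ChA-1 stand at 44, 45 and 65, and SNU-869 at 81. The 3 gallbladder ascites lines stand at 24 to 30 against 0 to 6 in gallbladder primary lines. Over all tested genes these gallbladder lines had 1615 to 2045 against 786 to 1085.

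Around ZNF790 the difference covered a run of genes. ZNF790 and the 8 tested genes on each side, all but 2 of them zinc finger genes (ZNF529-AS1 and ZNF567-DT are noncoding), all had log2 differences below 0, with a median of −2.09. Of these 17 genes, 7 were lower at an unadjusted p under 0.05, beside 2.32% of all genes. ZNF790 and ZNF345 are among the 7 and were named for their small p, and 5 of the other 15 were lower. ZNF829 and ZNF568 had 0 counts in all 3 ascites lines, against medians of 0.0862 and 0.574 CPM and maxima of 9.68 and 10.4 in the primary lines. ZNF420 was at 1.11, 0 and 0.298 CPM against 1.08, 4.32 and 11. ZNF567 was at 5.2, 5.4 and 4.77 CPM, below all primary lines (6.25, 11.7 and 19.4), with a log2 difference of −1.17 ± 0.43 (SE, p = 0.0168). The run did not reach all lines alike: ZNF260, at its edge, was at 23.2 CPM in HuCCT1, 0.498 in OZ and 0.224 in Sk-ChA-1, against 16.4, 36.5 and 57. Only HuCCT1 lay within the primary range. Without HuCCT1, ZNF260 was called (log2 −6.59, edgeR adjusted p = 0.00595). That fit left out the ascites line within the primary range, so its call is no further evidence for ZNF260.

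**Figure D2:**
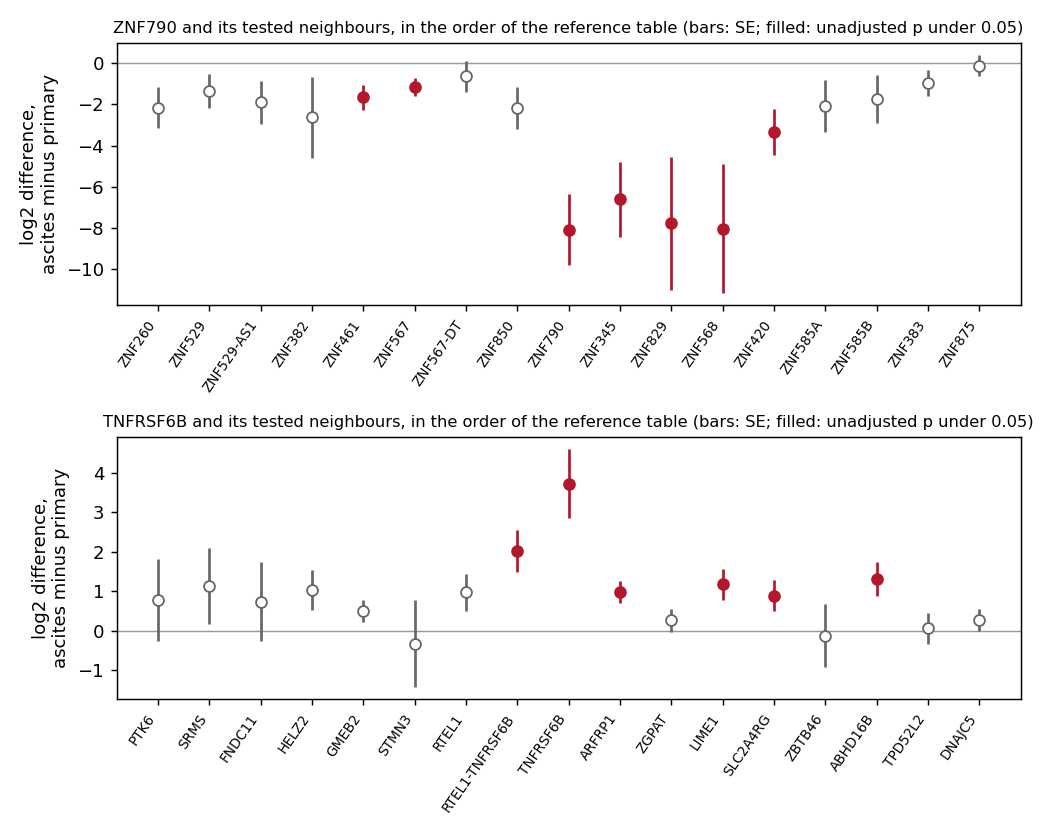
Log2 difference of ascites minus primary lines (y axis, points with SE as bars) for ZNF790 and TNFRSF6B with the 8 tested genes on each side in reference order, filled where the unadjusted p is under 0.05. All 17 genes around ZNF790 lie below 0 and 15 of 17 around TNFRSF6B above. The fitted values of genes with 0 counts in all ascites lines depend on the prior count.

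The other lower genes of smallest p include a nuclear splicing factor, a glycosyltransferase, a haematopoietic transcription factor and an enzyme of NAD synthesis. QPRT, which makes an NAD precursor from quinolinate, was at 0.0853, 0.0831 and 0.149 CPM in HuCCT1, OZ and Sk-ChA-1, against 0.257, 13.5 and 143. The groups did not overlap, and the primary mean was 364 times the ascites mean (counting interval 142 to 1330). edgeR gave p = 0.00267 and an adjusted p of 0.998. GATA2, a transcription factor best known from blood progenitors and endothelium, was at 0.0853, 0.332 and 0.298 CPM against 0.0856, 22.2 and 112, with HuH28 the 1 primary line at the ascites level. Its ratio was 152 (80 to 332).

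LARGE2, which extends sugar chains on alpha-dystroglycan, a receptor for laminin, was at 0, 0.166 and 0.0746 CPM. The primary lines held 0, 23 and 59.7 CPM, and HuH28 (0) and SNU-1079 (0.164) were the 2 that overlapped the ascites lines. edgeR gave p = 0.00224 and an adjusted p of 0.998. ADGRG5, an adhesion G protein-coupled receptor, was at 0.171, 0.166 and 0.149 CPM against 0, 6.6 and 22.5, and again HuH28 was the line at 0. Both genes were thus near 0 in the ascites lines and in HuH28.

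RBFOX3, a neuronal splicing factor also known as NeuN, was low in all lines. It was at 0.171, 0.166 and 0.0746 CPM in the ascites lines, 5 counts in all, against 0.475, 1.03 and 2.51. FNDC8, a protein with a fibronectin type III domain, was at 0.0853, 0.166 and 0.298 CPM against 0.717, 1.35 and 2.43. Neither gene overlapped between groups (exact permutation p = 0.0035 each), and the ratios were 8.35 (3.58 to 25.7) and 7.58 (3.68 to 18.9). Both genes were named for a small p in the same lines, so the permutation p adds no support.

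Among the higher genes of smallest p, 3 loci separated the groups: IL1RL1, EPHB6 and KLRK1 with its readthrough. EPHB6, an Eph receptor without kinase activity, was at 788 CPM in HuCCT1, 172 in OZ and 78.4 in Sk-ChA-1. The primary lines held 0.27, 7.76 and 41.5 CPM, so the lowest ascites line was above the highest primary line. The log2 difference was 4.90 ± 1.00 (p = 0.000254, adjusted p = 0.821). Without HuCCT1 it was 3.42.

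IL1RL1, the receptor ST2 of interleukin 33, was at 3.24, 0.914 and 23.1 CPM against 0, 0.0768 and 0.558. KLRK1, the activating receptor NKG2D of lymphocytes, was at 1.54, 11.9 and 1.64 CPM against 0, 0.0808 and 0.791. Neither overlapped, and the log2 differences were 5.82 ± 1.15 and 4.81 ± 1.05 (adjusted p = 0.821 and 0.856). Without Sk-ChA-1 the value for IL1RL1 was 3.70, and without OZ that for KLRK1 was 3.16. The entry KLRC4-KLRK1, a readthrough transcript at 1.54, 13.3 and 1.79 CPM, covers the same exons, so its reads and those of KLRK1 cannot be counted apart. Both genes stayed low in absolute terms beside PTPRC at or near 0.

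PORCN and LAPTM5 were higher in most but not all ascites lines. PORCN, the acyltransferase that loads lipid onto WNT ligands before secretion, was at 81.9, 141 and 26.1 CPM against 1.66, 10.2 and 31.3. HuH28, at 31.3 CPM, was the 1 primary line above Sk-ChA-1. The log2 difference was 2.76 ± 0.61 (p = 0.000492, adjusted p = 0.856). LAPTM5, a lysosomal membrane protein of blood cells, was at 0.853 CPM in HuCCT1, 211 in OZ and 84.4 in Sk-ChA-1, against 0, 1.31 and 6.37. HuCCT1 lay inside the primary range and the other 2 lines above it.

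The remaining 4 were set by 1 ascites line each. KRT16, a keratin of activated squamous epithelium, was at 491 CPM in Sk-ChA-1, 18 in HuCCT1 and 6.81 in OZ, against 0.257, 5.53 and 9.56. Its log2 difference of 5.07 ± 0.94 (p = 0.000111) became 1.29 without Sk-ChA-1. DMBT1, a secreted scavenger protein of mucosa, was at 1970 CPM in Sk-ChA-1 and at 0.341 and 14.8 in HuCCT1 and OZ, against 0.0979, 1.62 and 16.4. Its log2 difference was 7.37, and 0.94 without Sk-ChA-1. CDHR2, a cadherin of the intestinal brush border, was at 254 CPM in OZ and at 0.171 and 0.224 in the other two, below the primary median of 0.861. Without OZ the value of 6.22 turned to −2.44. PRSS1, cationic trypsinogen of the pancreas, was at 116 CPM in HuCCT1, 1.08 in OZ and 0 in Sk-ChA-1, with 0 to 1.08 in the primary lines. Without HuCCT1 its 7.90 became 1.75.

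**Figure D3:**
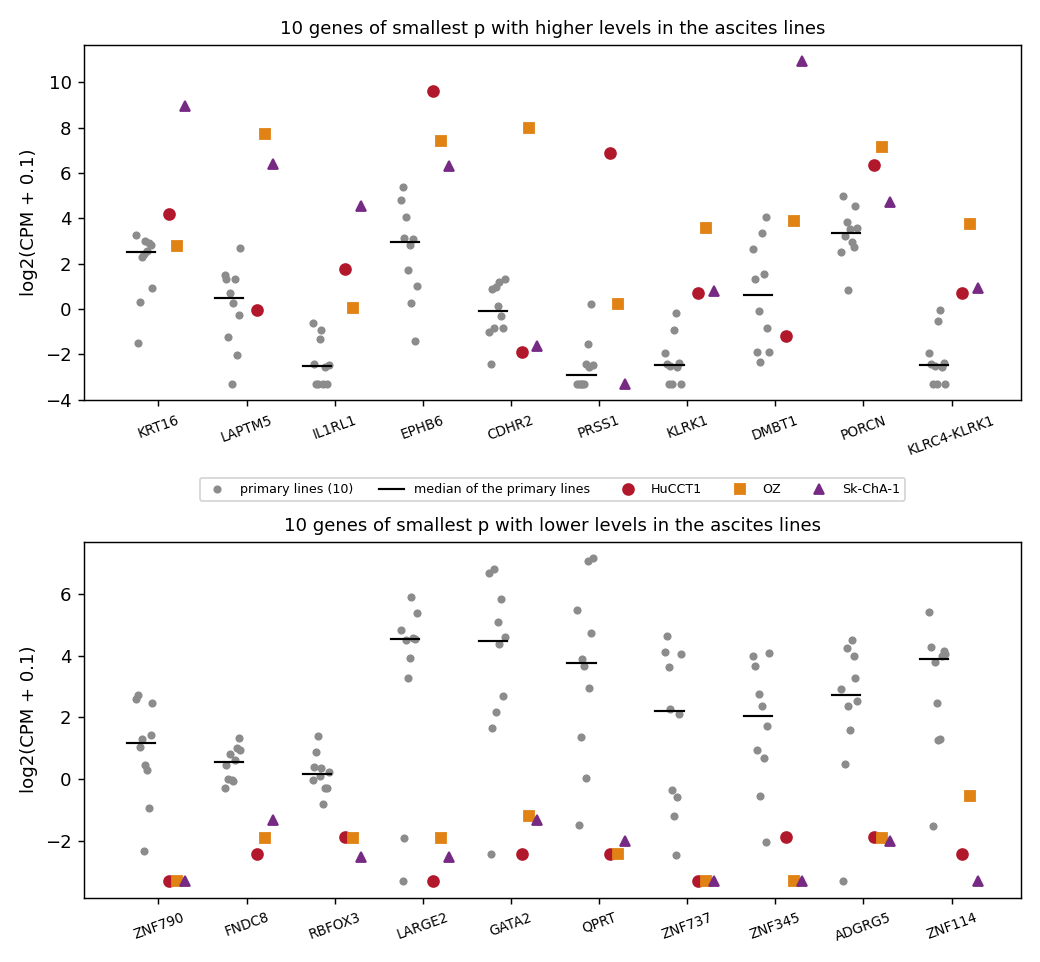
Levels as log2(CPM + 0.1) (y axis) of the 10 genes of smallest p in each direction, with primary lines as grey points, their median as a bar and each ascites line by its own symbol. EPHB6 has all 3 ascites lines above the primary lines (78.4 to 788 CPM against at most 41.5), KRT16, DMBT1, CDHR2 and PRSS1 have 1 ascites line far above the other two, and ZNF790 and ZNF737 have all 3 at 0.

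TNFRSF6B, a soluble decoy receptor that binds FAS ligand, was looked at after its value was seen. It was at 114, 416 and 48 CPM in HuCCT1, OZ and Sk-ChA-1, against 2.41, 7.25 and 52.5 in the primary lines. TGBC18TKB (52.5) was the 1 primary line above Sk-ChA-1, followed by SNU-1196 (46.3), and the other 8 stood at 10.5 or below. The log2 difference was 3.72 ± 0.87 (p = 0.000829, adjusted p = 0.933), and 2.48 without OZ. The readthrough RTEL1-TNFRSF6B covers its exons and shares its reads (233, 548 and 99.6 CPM against 28, 71.3 and 163).

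The neighbours of TNFRSF6B on chromosome 20 also lay mostly above 0. Of the gene and 8 tested genes on each side, 15 of 17 were above 0, with a median of 0.89. At an unadjusted p under 0.05, 6 were higher and 0 lower, beside 1.42% and 2.32% of all genes. The 6 include TNFRSF6B itself and the readthrough that shares its reads, and 4 of the other 15 were higher. ARFRP1, a small GTPase of the Golgi, was at 80, 74.7 and 65.6 CPM against 23.4, 37.4 and 55.2, without overlap (log2 0.98 ± 0.27, p = 0.00323). LIME1, a membrane adaptor of lymphocytes, was at 30.5, 50.2 and 58.2 CPM against 9.7, 17.8 and 37.4, and ABHD16B at 16.8, 39.9 and 11.2 against 4.03, 9.72 and 13.7. The log2 difference of ABHD16B was 1.31, and 0.63 without OZ. STMN3 and ZBTB46 were the 2 below 0. Copy number was not measured here.

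In each list below, higher and lower mean an unadjusted p under 0.05, which 1.42% of all genes met as higher and 2.32% as lower, and no member passed the adjusted threshold. edgeR gave 0 genes with an unadjusted p under 0.05 among 17 integrins and 16 genes of peritoneal attachment tested. Their medians were −0.05 and 0.07. ITGA2, a collagen receptor subunit, was at 635, 189 and 156 CPM against 48.2, 119 and 499. CD44, a hyaluronan receptor, was at 2410 CPM in HuCCT1 and at 236 and 391 in OZ and Sk-ChA-1, against 57, 399 and 753. Its log2 difference of 1.19 turned to −0.51 without HuCCT1.

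Of 20 matrix proteases and inhibitors tested, 3 were higher and 1 lower at an unadjusted p under 0.05 (median −0.21), beside 1.42% and 2.32% of all genes. TIMP1, an inhibitor of metalloproteinases, was at 825, 498 and 456 CPM against 31.5, 137 and 382, without overlap. Its log2 difference was 1.89 ± 0.49 (p = 0.00179, adjusted p = 0.998). TIMP3, an inhibitor bound to matrix, was at 0.0853, 0 and 0.746 CPM against 0, 15.2 and 1030, with overlap. PLAUR, the urokinase receptor, was at 109, 275 and 29.9 CPM against 3.2, 41.7 and 98.9, with a log2 difference of 1.64, and of 0.65 without OZ. SERPINB2, an inhibitor of urokinase, was at 286 CPM in HuCCT1 and 0 in the other two.

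Basement membrane genes split. LAMA3, a laminin chain, was at 1140, 329 and 140 CPM against 35.2, 171 and 296 (log2 1.70 ± 0.64, p = 0.0197), but 0.49 without HuCCT1. The collagen IV chain COL4A1 was at 0.597, 0.0831 and 0.298 CPM against 0, 0.473 and 646, and COL4A2 at 1.71, 0 and 1.04 against 0.398, 7.95 and 924. The ascites lines lay inside the primary range for COL4A1, whose median was also below 1 CPM. Of 22 genes in this list, 1 was higher and 2 lower at an unadjusted p under 0.05, beside 1.42% and 2.32% of all genes, and each adjusted p was 0.998.

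The mesenchymal list had a median of −1.43 over 22 genes, with 2 lower and 0 higher at an unadjusted p under 0.05 (2.32% and 1.42% of all genes), and the epithelial list −0.38 over 26 with none under 0.05. Summed levels of the mesenchymal list went the other way. They were 7700, 3500 and 4940 CPM in HuCCT1, OZ and Sk-ChA-1, above the primary median of 1480 and within the primary range of 324 to 46100. VIM, the gene of vimentin, was at 249, 3.41 and 1630 CPM against 0.253, 2.74 and 2450 (log2 0.45). SNAI1, a repressor of epithelial genes, was at 0.427, 0.914 and 0.224 CPM against 0.398, 2.46 and 33.3. COL5A1, a fibrillar collagen chain, was at 0.256, 0.0831 and 0.298 CPM, but its primary median was 0.572 and its maximum 3350. Without HuH28 and SNU-1079 its log2 difference moved from −10.66 to −4.30. CDH1, the epithelial cadherin, was at 322, 231 and 270 CPM against 1.73, 626 and 902.

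Apoptosis regulators held 1 gene at an unadjusted p under 0.05 among 22 tested (median 0.23). PMAIP1, the BH3-only protein NOXA, was at 53.1, 91.2 and 70.8 CPM against 5.79, 17.9 and 51.8. The groups did not overlap (log2 1.50 ± 0.52, p = 0.0127, adjusted p = 0.998). BCL2L11, the BH3-only protein BIM, was at 28.7, 25.9 and 25.9 CPM, inside the primary range of 23.6 to 77.1. Of 21 p53 targets, 2 were higher at an unadjusted p under 0.05, beside 1.42% of all genes, and 0 lower (median 0.46, each adjusted p 0.998). TP53I3, a quinone oxidoreductase, was at 47.2, 77.2 and 41.2 CPM against 15.6, 26.4 and 45, with HuH28 the 1 primary line inside the ascites range. SPATA18 was high only in OZ (30.1 CPM against 0.512 and 0.298), and its log2 difference of 2.99 turned to −1.62 without OZ.

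Notch signalling passes from ligands on one cell to receptors on the next and ends in the HES and HEY repressors. Of 19 Notch pathway genes tested, 3 were lower and 0 higher at an unadjusted p under 0.05 (median −0.48), beside 2.32% and 1.42% of all genes, and each adjusted p was 0.998. The receptor NOTCH3 was at 1.54, 1.41 and 0.522 CPM in HuCCT1, OZ and Sk-ChA-1, against 0.0856, 87.5 and 447. HuH28 was at 0.0856 and SNU-1079 at 2.14 CPM, and the other 8 primary lines were at 53.6 or above. The log2 difference was −6.73 ± 1.92 (p = 0.00367, adjusted p = 0.998).

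NRARP, NOTCH1, JAG1 and HES1 were closer between groups than NOTCH3. NRARP, a feedback target, was at 5.8, 7.14 and 5.97 CPM against 2.95, 22.7 and 89, and the target HEYL at 0 counts in the ascites lines against 0, 0.176 and 2.9. The receptor NOTCH1 was at 29.2, 17.6 and 52.4 CPM against 32.9, 44.9 and 121. The ligand JAG1 was at 260, 113 and 23.6 CPM against 22.1, 105 and 358, and the target HES1 at 76.9, 33.6 and 68.8 against 24, 66 and 122. NRARP, JAG1 and HES1 had ascites lines inside the primary range, and for NOTCH1 only Sk-ChA-1 lay inside it. HEYL had a fitted log2 difference of −6.53 (edgeR p = 0.0294), at low primary levels and with primary lines also at 0.

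WNT target genes had a median of −1.36 over 18 tested, with 2 lower and 0 higher at an unadjusted p under 0.05, beside 2.32% and 1.42% of all genes. NOTUM, a secreted enzyme that inactivates WNT ligands, was at 0.0853, 1.49 and 0.373 CPM against 0.0845, 10.9 and 360. ASCL2, a stem cell transcription factor of the gut, had 0 counts in all ascites lines against 0, 1.01 and 37.4 CPM. AXIN2, a feedback inhibitor, was at 14.2, 14.9 and 6.64 CPM against 1.32, 28.2 and 235. With repository as a covariate the log2 difference of AXIN2 moved from −2.65 to −0.73 and that of NOTUM from −6.29 to −2.92. In the same lines PORCN, which acts upstream, was at the levels given above.

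Receptor and growth signalling gave single genes. SPRY4, a feedback inhibitor of MAP kinase signalling, was at 83, 416 and 55.6 CPM against 4.65, 20.5 and 165 (log2 2.10 ± 0.88, p = 0.0317), and 0.71 without OZ. NT5E, the ectonucleotidase CD73, was at 290, 594 and 60.5 CPM against 25.5, 84.4 and 206, with a log2 difference of 1.71, and of 0.87 without OZ. TGFBR2, a receptor of TGF-beta, was at 324, 377 and 273 CPM against 64.7, 167 and 313, so that only TFK-1 among the primary lines was above Sk-ChA-1. None of 24 receptor kinases had an unadjusted p under 0.05 (median −0.60).

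Interferon genes followed single lines. Their list had a median of 0.90 over 30 genes, with 0 under an unadjusted p of 0.05. Their summed level was 10600 CPM in HuCCT1, 716 in OZ and 5730 in Sk-ChA-1, against 608, 1880 and 11500. XAF1, an interferon-induced proapoptotic protein, was at 722, 0.0831 and 136 CPM. Of 16 MHC class I genes, 2 were higher at an unadjusted p under 0.05, beside 1.42% of all genes: PSMB10, an immunoproteasome subunit, at 47.7, 73.7 and 76.3 CPM against 12.2, 30.7 and 70.6, and HLA-E at 350, 323 and 737 against 141, 235 and 407. HLA-E was 0.35 on the log2 scale without Sk-ChA-1.

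Hypoxia and stress genes held single members at an unadjusted p under 0.05. BNIP3, a mitophagy receptor induced by hypoxia, was at 0.512, 0.249 and 0.224 CPM against 0.414, 14.3 and 41.7, with TKKK the 1 primary line inside the ascites range. The primary mean was 51.7 times the ascites mean (29.6 to 100). It was 1 of 2 lower among 30 genes of glycolysis and hypoxia (median −0.11), beside 2.32% of all genes. ADM, the vasodilator adrenomedullin, was the other, at 4.18, 12.5 and 6.86 CPM against 10.2, 17.8 and 89.9. ATF3, a stress-induced transcription factor, was at 5.03, 1.25 and 2.01 CPM against 4.11, 9.27 and 17.1. Proliferation genes did not separate the lines: 0 of 30 cell cycle genes had an unadjusted p under 0.05 (median −0.11).

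**Figure D4:**
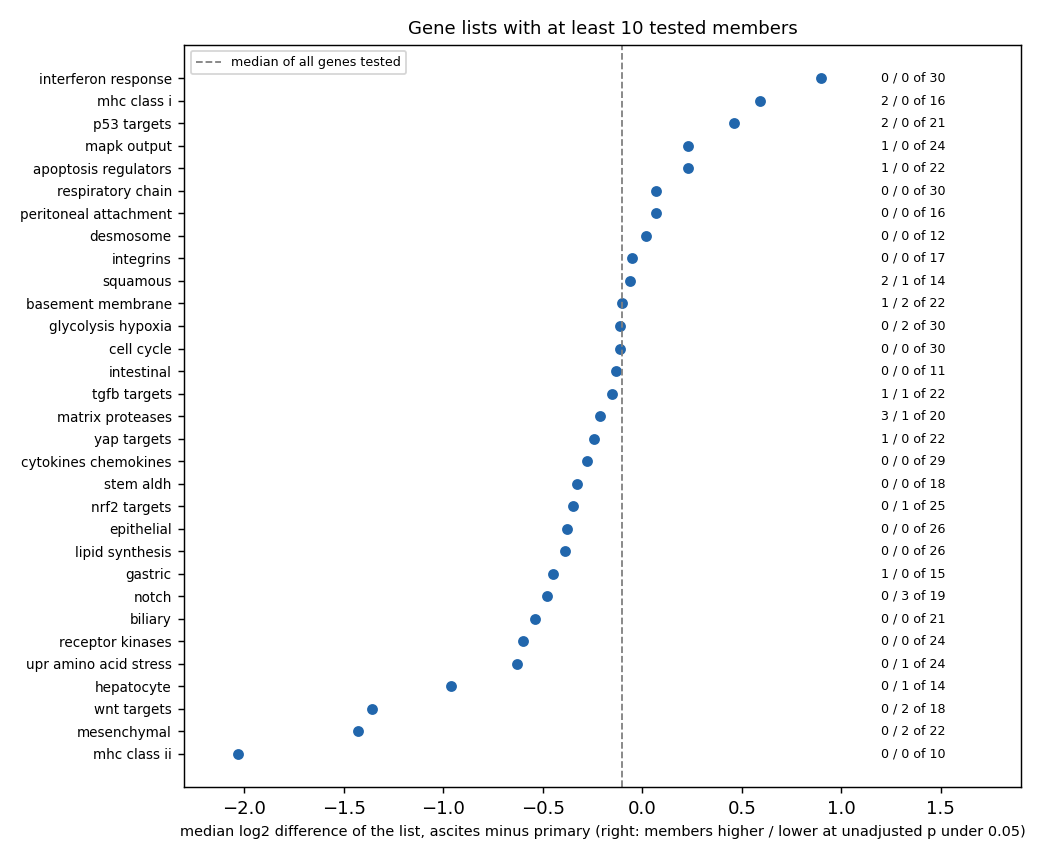
Median log2 difference, ascites minus primary lines (x axis), of the 31 gene lists with at least 10 tested members (y axis), beside the median of all genes (dashed line, −0.10). Numbers at the right give the members that were higher and lower at an unadjusted p under 0.05. No member of any list passed the adjusted threshold, and the interferon list with the highest median (0.90) has 0 in either direction.

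Complex I of the respiratory chain takes electrons from NADH. Its NDUF genes were examined together after 4 of them appeared among the genes without overlap. Of 37 tested, 28 had a log2 difference above 0, and the median was 0.22. The 3 at an unadjusted p under 0.05 (NDUFA13, NDUFB6 and NDUFA7) are among the 4 that prompted the look, so their number is no further result. A respiratory chain list of 30 tested genes had a median of 0.07, with 0 genes at an unadjusted p under 0.05 by edgeR. NDUFA13 was at 84.1, 144 and 116 CPM against 45.5, 66.4 and 82.7 (log2 0.84 ± 0.22, p = 0.00183). NDUFB6 was at 46, 45.6 and 51 CPM against 21.7, 29.3 and 36.8, NDUFA7 at 31.8, 43.5 and 28.3 against 13.1, 20.7 and 27.8, and NDUFB1 at 42.1, 44.9 and 52 against 11.7, 29.2 and 41.9. Each adjusted p was 0.998.

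Further genes without overlap were chosen after their values were seen. TNFAIP8, an inhibitor of cell death, was at 31.7, 44.1 and 46.4 CPM against 12, 17.4 and 27.6 (log2 1.14 ± 0.28, p = 0.00131). DNM1L, the GTPase that divides mitochondria, was at 173, 156 and 138 CPM against 54.6, 95.9 and 118. SLC12A2, the chloride cotransporter NKCC1 of secretory epithelium, was at 466, 467 and 562 CPM against 10.7, 98.4 and 412. SLFN13, a ribonuclease that cleaves transfer RNA, was at 230, 245 and 337 CPM against 0.0797, 71.6 and 207.

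On the lower side, PPM1H, a protein phosphatase, was at 8.53, 7.31 and 7.53 CPM against 8.61, 46.1 and 120. SLC35A1, the transporter of CMP-sialic acid, was at 20.9, 19.7 and 19.2 CPM against 21.2, 51.6 and 123, and ACVR1B, a receptor of activin, at 34, 26.7 and 19.2 against 35.3, 54.5 and 95.8. AMOT, a partner of YAP at cell junctions, was at 9.73, 2.41 and 0.0746 CPM against 10.1, 36.8 and 60.4. CD81, a tetraspanin, was at 0.256 CPM in HuCCT1, 0.747 in OZ and 146 in Sk-ChA-1, against 188, 304 and 783. Its log2 difference was −2.86 (p = 0.0563), and −9.42 with an edgeR adjusted p of 0.0142 without Sk-ChA-1. Sk-ChA-1 was the ascites line nearest the primary range, so the call without it is no further evidence for CD81.

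Gallbladder lines gave the same contrast in lines that are not among the 13: 3 ascites lines (G415, NOZ and OCUG-1) against 3 primary lines (SNU-308, TGBC14TKB and TGBC2TKB). Their p-values came from the fit that also tests the difference between sites, which holds the 13 lines as well. Its gene filter and dispersions thus drew on the 13 lines too, so the overlap below is not one of independent tests. edgeR called 3 of 16539 genes there (0.0181%). At an unadjusted p under 0.05, 575 (3.48%) were higher and 1301 (7.87%) lower. Of the 15661 genes in both fits, 586 had an unadjusted p under 0.05 in the 13 lines and 1675 in the gallbladder lines. Of these, 22 were higher in both, 96 lower in both and 10 opposite. Those with the same sign were 20.1% of the first set and 7.04% of the second.

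The difference of the ascites effect between sites was tested directly. edgeR called 0 of 16539 genes, with 998 (6.03%) at an unadjusted p under 0.05. limma-voom also called 0, and DESeq2 called 74. KRT16 had the opposite direction in the gallbladder, at 1.16, 1.57 and 1.09 CPM in ascites lines against 2.87 to 22 in primary lines (interaction p = 0.000225, adjusted p = 0.678). So did KLRK1 (log2 −4.34), its readthrough (−3.82), CDHR2 (−2.67), PORCN (−1.45) and IL1RL1 (−0.34). The edgeR interaction p was 0.00182 for KLRK1, 0.00146 for CDHR2 and 0.00257 for PORCN (adjusted p = 0.804 each). Of the other higher genes of smallest p, LAPTM5, EPHB6, DMBT1 and PRSS1 lay above 0 there. CDH1 was at 0.699 to 5.11 CPM in the gallbladder ascites lines against 93.9 to 733, where the ascites lines outside the gallbladder held 231 to 322 (interaction p = 0.00384, edgeR adjusted p = 0.804).

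Of the 32 genes without overlap in each direction, 6 higher and 7 lower were also without overlap in the gallbladder lines. With 3 lines against 3, 6.64% of all genes lay wholly higher and 10.1% wholly lower there. PMAIP1 was at 65.2, 198 and 98 CPM in G415, NOZ and OCUG-1 against 26.2 to 63.8 in gallbladder primary lines (log2 1.56, p = 0.0379). S100A6, a calcium binding protein, was at 2210, 2470 and 2700 CPM in HuCCT1, OZ and Sk-ChA-1 against 438, 1370 and 1870, and at 882, 1610 and 1260 against 251 to 688 in the gallbladder. JAK2, a kinase of cytokine receptors, was at 20.8, 21.6 and 24.7 CPM against 2.53, 9.44 and 19.8, and ETV1, an ETS factor, at 12.8, 52.5 and 15.8 against 0.169, 3.46 and 11.7. Their gallbladder ascites levels were 13.8 to 34.3 and 59.1 to 112 CPM, against at most 13.6 and 21.5. GSTT2 and GSTT2B, near-identical glutathione transferases whose reads cannot be told apart, complete the higher group.

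On the lower side of both stood ZNF790, ZNF567, RBFOX3, BCL7A, NFIL3, TLL2 and the pseudogene MAPK8IP1P2. BCL7A, a subunit of the SWI/SNF chromatin remodeller, was at 10.8, 10 and 4.1 CPM against 11.5, 21.6 and 43.2, and at 13.9, 1.96 and 4.82 against 16.5 to 44.9 in the gallbladder. NFIL3, a transcription factor of the circadian output, was at 16.3, 13.3 and 14.3 CPM against 17.8, 24.3 and 44.9, and at 19, 27.3 and 19.6 against 35.3 to 41.7. RBFOX3 had a gallbladder log2 difference of −5.30 (p = 0.000343).

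Among genes described above, TNFRSF6B was at 147, 268 and 95 CPM in the gallbladder ascites lines against 0.891 to 8.14 in the primary lines (log2 4.91, p = 0.00211, edgeR adjusted p = 0.318). NOTCH3 was at 8.48, 2.04 and 0.233 CPM against 21.5 to 502 (log2 −5.94, p = 0.0071). HEYL had 0 counts in all 6 ascites lines and 4.41 to 4.93 CPM in the gallbladder primary lines. EPHB6 was at 0.0724, 4.48 and 96.9 CPM in the gallbladder ascites lines against 0.904 to 9.17, with overlap, and its effect did not differ between sites by the test (interaction p = 0.302).

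The zinc finger genes of chromosome 19 had a median of −0.71 in the gallbladder comparison, with 15 of 238 lower and 0 higher at an unadjusted p under 0.05, beside 7.87% of all genes lower, so that the share was not above that of all genes. At most 3 counts were found for 30, 30 and 24 of them in G415, NOZ and OCUG-1 and for 0 to 6 in the primary lines. ZNF256 and ZNF583 were chosen after their values were seen. ZNF256 had 0 counts in 5 of the 6 ascites lines of both sites and 0.0777 CPM in OCUG-1. Primary lines held 0, 5.56 and 14 CPM outside the gallbladder and 4.03 to 35.3 in it. ZNF583 showed the same order, at 0 counts in the same 5 lines and 0.155 CPM in OCUG-1, against 0, 1.6 and 14.9 and against 2.74 to 6.37. ZNF737 was at 1.38, 4.79 and 4.51 CPM in the gallbladder ascites lines against 3.7 to 11.8, with overlap (interaction p = 0.00355, edgeR adjusted p = 0.804).

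**Figure D5:**
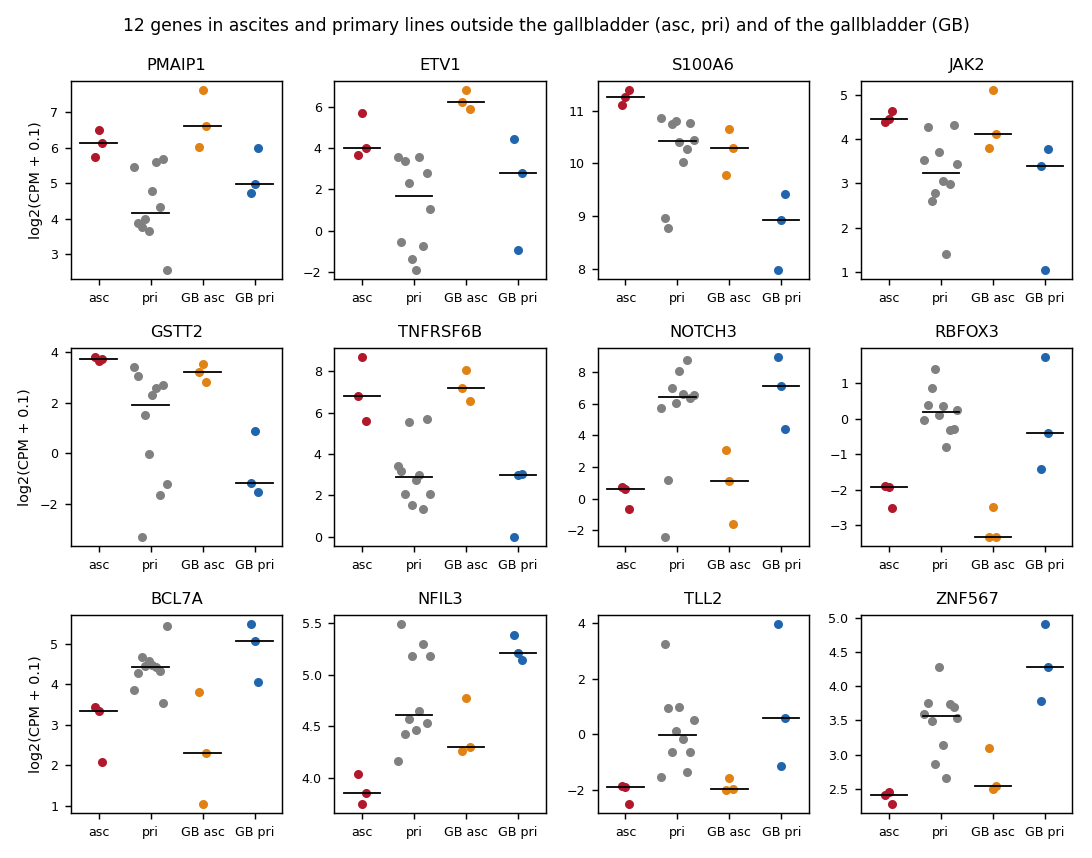
Levels as log2(CPM + 0.1) (y axis) of 12 genes in ascites (asc) and primary (pri) lines outside the gallbladder and of the gallbladder (GB asc, GB pri), with 1 point per line and the median as a bar. PMAIP1, ETV1, S100A6, JAK2 and GSTT2 have all ascites lines above all primary lines at both sites, RBFOX3, BCL7A, NFIL3, TLL2 and ZNF567 have them below, and NOTCH3 and TNFRSF6B overlap outside the gallbladder only.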

How the data were processed

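Messenger RNA of each line was sequenced from poly(A)-selected libraries. The authors deposited raw read counts per gene entry, made with Trimmomatic, TopHat2 2.0.8, Picard 1.69 and featureCounts on hg19/GRCh37, per the submitters' processing notes. Neither the strand setting nor the annotation release is known from these notes, so overlapping and antisense genes can share reads. Symbols were found for 23512 of 24222 entries in RefSeq and for 355 in GENCODE, and 355 (0.484% of counts) had none. Promoters are RefSeq's on another build, used only for sequence and gene order.

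Genes passing filterByExpr were tested with edgeR 4.0.16 (R 4.3.3): TMM scaling, robust quasi-likelihood F test, Benjamini-Hochberg adjustment, threshold 0.05. CPM used TMM-scaled totals over all 20 lines, and log2 CPM a prior count of 2. Exact two-sided permutation tests used all 286 assignments of the 13 lines. Alternatives were limma-voom (3.58.1), DESeq2 (1.42.0), other scalings and filters, site and repository covariates, and leaving out each line. Wherever repository was a covariate, Zurich was merged with DSMZ. Sk-ChA-1 thus shared its repository level with the primary lines EGI-1 and TFK-1, and its own repository was not adjusted for. The fit was tested on simulated data with 50 genes changed per size among 15661, where 4.69% of unchanged genes had p under 0.05. Replicate numbers only name lines, and p-values measure the spread between lines.

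The text names genes called in each direction (up to 15), or else the 10 of smallest p per direction as values that did not pass, up to 4 members of smallest p per described list, defining markers and neighbours. The members and the 36 gene lists were chosen with earlier results of these data known. Other genes are said to be chosen after their values were seen. The result for 1 gene is not reported here.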

Additional observations from a re-analysis of the deposited data

Results flagged for a closer look

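Of 117 genes looked at, 9 had 1 line far from the rest among the 10 primary lines. Not all 9 are listed here. Each value here is the gap to the nearest line divided by the whole range of log2 CPM. All are past a 95% critical value that chance passes in about 1 group in 20, so some of the 9 can be chance. HuH28 was the lowest line for KRT19 (gap share 0.855, at 1.03 CPM), EPCAM (0.696, at 0.257 CPM), ESRP2, an epithelial splicing regulator (0.561, at 8.65 CPM), and EGFL7, an endothelial secreted factor (0.496, at 0.771 CPM). HuH28 was also the highest line for TLL2 (0.488, at 9.33 CPM), a metalloprotease. Lines other than HuH28 were apart in 3 genes. PRSS1 was highest in TGBC18TKB (0.555, at 1.08 CPM) and DNM1L lowest in SNU-245 (0.608, at 54.6 CPM). HAS2, a hyaluronan synthase, was highest in SNU-1196 (0.482, at 19.4 CPM). No difference of the ascites effect between sites passed the adjusted threshold of edgeR.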

How the results depend on the processing

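DESeq2 called 114 genes. The fit without HuH28 and SNU-1079 together called 5. It was added after seeing the data. It is no evidence for genes in which these lines are the ones near the ascites level, such as LARGE2 and NOTCH3. The fits without 1 line called 0 to 1 (ZNF260 without HuCCT1, CD81 without Sk-ChA-1). For both genes the line left out was the ascites line nearest the primary level. The fit described and every other alternative called 0. For the difference between sites DESeq2 called 74 and the fits without 1 line 0 to 2. The cause was not tested. Of 117 genes described, 104 kept their direction under all alternatives and 13 did not. Over the fits without 1 line, log2 differences ran from −0.07 (without HuCCT1) to 0.63 for KRT7, −8.62 (without HuCCT1) to 5.95 for SERPINB2, −0.51 (without HuCCT1) to 1.66 for CD44, −2.44 (without OZ) to 6.82 for CDHR2, −0.71 to 0.03 (without OZ) for SOX9, −1.62 (without OZ) to 3.95 for SPATA18, −0.07 (without Sk-ChA-1) to 3.02 for KRT14, −1.70 (without Sk-ChA-1) to 4.12 for UPK3B and −1.83 (without Sk-ChA-1) to 1.42 for VIM. Without OZ and the ampullary lines, with site as covariate, directions turned for CDHR2 (−2.34), SOX9 (0.85), SPATA18 (−1.45) and HBEGF (−0.13). With repository as covariate they turned for CDHR2 (−0.30), SOX9 (0.13) and SPATA18 (−0.24). SOX9 was also at 0.68 and 0.28 with site as covariate and at 0.13 without the KCLB lines. Under limma-voom SOX9 (0.22), EPCAM (0.15), XAF1 (−0.25) and CDH1 (0.70) turned. Unadjusted counts ran from 338 with at least 1 CPM in 10 lines to 949 with DESeq2. Chromosome 19 zinc finger genes counted lower were 46 with DESeq2 and 11 of 171 with at least 1 CPM in 10 lines. With 3 ascites lines, levels of a few counts are uncertain by several fold. No paired analysis was possible because the replicate numbers follow the order of deposition and the labels tie no lines to each other.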

Other observations

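KRT14, a basal keratin, was at 2.9, 1.74 and 36.8 CPM in HuCCT1, OZ and Sk-ChA-1 against 0.343, 2.08 and 5.69 (lowest, median and highest) in the primary lines, so only Sk-ChA-1 lay above the primary range. Of 14 squamous genes tested, 2 were higher and 1 lower at an unadjusted p under 0.05, beside 1.42% and 2.32% of all genes, with a median of −0.06. MHC class II genes had the lowest median of the lists with at least 10 tested members (−2.03 over 10 genes), with 0 members under 0.05 by edgeR. DESeq2, which called 114 of all genes, called 9 of the 10 lower genes of smallest p. It gave an adjusted p to 4 of the 10 higher genes (LAPTM5, IL1RL1, EPHB6 and PORCN) and called all 4, and gave none to the other 6. All these genes were chosen for a small p in the same lines, so the DESeq2 calls are no further evidence for them.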
